A study of Mus musculus with 69 samples.

Results

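Voltage-gated and potassium channel genes were followed in single cells of the mouse embryonic cerebral wall. The set held every gene whose symbol starts with Kcn, Cacna, Cacnb or Cacng, or with Scn, a digit and the suffix a or b. Each gene was read from 1 Affymetrix probe set, chosen among those annotated to a single gene as the one whose mean log2 signal over all cells was highest. The choice used symbols and the mean over all cells only, and gave 119 of the 18194 genes measured. The RefSeq table held 138 symbols of this form, and the 19 without such a probe set are not analysed here.

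The cells came from the dorsal forebrain of CD1 mice at embryonic day 14. Small pieces of the cerebral wall were trypsinised, and single cells were picked by hand with a glass capillary, lysed, amplified and hybridised, 1 cell per array, with 4 bacterial RNAs added to each tube as spikes. The source label placed 3 cells in the cortical plate (CP), the layer where newborn neurons settle, and 66 cells in the ventricular zone and subventricular zone (VZ/SVZ), where progenitors divide and new neurons leave. The source label was used because the description of the 3 CP cells names VZ/SVZ. The series design counts 102 amplified cells, of which 70 went on to arrays; 69 are analysed here.

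No label names the animal, litter or dissection of a cell, so CP and VZ/SVZ are each 1 sample of cells. Differences are therefore given as values with the spread over cells (SD), and shares of cells with intervals at 95% that cover counting error only. There is no test of CP against VZ/SVZ and no p-value. Titles also carry a letter that the labels do not explain. The 3 CP cells have the letter E and no other cell has it, so letter and source cannot be told apart. The titles hold a number too, also unexplained, and those of the CP cells (12 and 19) occur in no VZ/SVZ cell. The number 18 occurs in 5 of the 7 letter D cells and in no other cell.

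Voltage-gated sodium and calcium channels open when the membrane depolarises and carry the upstroke of the action potential and calcium entry. Potassium channels set the resting potential and end the spike, and their accessory subunits change the gating, traffic or calcium sensing of the pore. In the developing cortex, progenitors are known for a negative resting potential dominated by potassium conductance, and neurons acquire sodium, calcium and further potassium currents as they mature.

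Signals are linear MAS5 intensities. A signal above 50 was counted as detected, and values under 50 were set to 50 before log2. The RNA of 3 marker genes was used to describe cells: Tubb3 (neuronal tubulin), Sox2 (a factor of neural progenitors) and Eomes (a factor of intermediate progenitors). The threshold fell into a gap for each of them, but close to the lower edge of the gap for Sox2. The highest signal at or under 50 and the lowest above it were 39.1 and 124 for Tubb3, 47.8 and 96.3 for Sox2, and 40.8 and 245 for Eomes. All 3 CP cells had Tubb3 above 50 and none had Sox2 or Eomes above 50. Of the 66 VZ/SVZ cells, 16 had Tubb3 only, 19 had Tubb3 and Sox2, 30 had Sox2 only and 1 had neither. Eomes was above 50 in 28 of them. A marker and a channel gene read in the same cell share that cell's amplification.

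The neuron and apical progenitor marker lists followed the source labels. All 10 neuron markers were above 50 in each CP cell, against 0 to 10 with a median of 3 in VZ/SVZ cells. Their summed level, in log2 units above 50, was 47.5 to 49.9 in CP cells and 0 to 50.3 with a median of 10.1 in VZ/SVZ cells. Of 8 apical progenitor markers, 0 to 2 were above 50 in CP cells and 0 to 8 with a median of 6 in VZ/SVZ cells. Their summed level was 0 to 5.29 in CP cells and 0 to 38.4 with a median of 27.1 in VZ/SVZ cells. The 8 intermediate progenitor markers separated the sources less by count, with 1 to 4 above 50 in CP cells and 1 to 8 with a median of 4 in VZ/SVZ cells. Their summed level was 2.86 to 7.97 in CP cells and 0.32 to 41.2 with a median of 14.9 in VZ/SVZ cells. No cell had an endothelial, microglial or erythroid marker above 50 (5, 5 and 4 markers measured), and the interneuron, Cajal-Retzius, pericyte and oligodendrocyte precursor lists reached at most 3 markers in any cell and 0 in CP cells. The spike added at 20 copies per cell read 514, 394 and 142 in CP cells, against a median of 591 in VZ/SVZ cells. The spike added at 5 copies was above 50 in 0 of 3 CP cells and 27 of 66 VZ/SVZ cells. The part of these differences in the results below was not tested.

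Detection was first counted on the probe sets used. Of 119 members, 48 (40.3%) were above 50 in at least 1 of the 69 cells, against 61.6% of all genes, and 71 were above 50 in none. The highest signal among those 71 was 48.4, and 62 of them stayed under 25 in every cell. With the probe set above 50 in the most cells in place of the one used, 61 members were detected, beside 64.5% of all genes, and with quantile normalization 60 were, beside 67.6%. A count of 0 in 69 cells allows a share of up to 4.35% of cells. Among the 48, 21 were above 50 in 7 or more cells and 27 in 1 to 6 cells. A single member, Kcnj11, was above 50 in at least 50% of cells, against 24.6% of all genes.

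The families gave different counts on the probe sets used. Of the 31 pore subunits of voltage-gated potassium channels, 14 were above 50 in at least 1 cell, and 6 of 11 calcium- or sodium-activated potassium channel genes were. Of 15 inward rectifiers, 3 were above 50 in at least 1 cell (Kcnj10, Kcnj11 and Kcnj14), and the G-protein-gated members Kcnj5, Kcnj6 and Kcnj9 were above 50 in none on any probe set. Kcnj3, another of them, was above 50 in none on the probe set used, and on 2 others in 3 and in 1 Tubb3-only cells. Of 12 tandem-pore leak channel genes, 4 reached 50: Kcnk1, Kcnk2, Kcnk5 and Kcnk10. The pore-forming subunits of calcium channels gave 3 of 9 (Cacna1c, Cacna1g and Cacna1h), and those of sodium channels 2 of 8 (Scn1a and Scn8a). Auxiliary subunits gave 2 of 4 for Cacna2d, 2 of 3 for Cacnb, 4 of 8 for Cacng and 1 of 3 for Scn b genes, and 5 of 12 for the potassium channel partners Kcnab, Kcne and Kcnip. Several of these counts rest on the choice of probe set. With a signal above 50 on any probe set, the counts were 7 of 9 for calcium channel pores, 4 of 8 for sodium channel pores, 2 of 3 for Scn b genes, 18 of 31 for voltage-gated potassium pores, 6 of 12 for their partners and 4 of 15 for inward rectifiers.

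**Figure D1:**
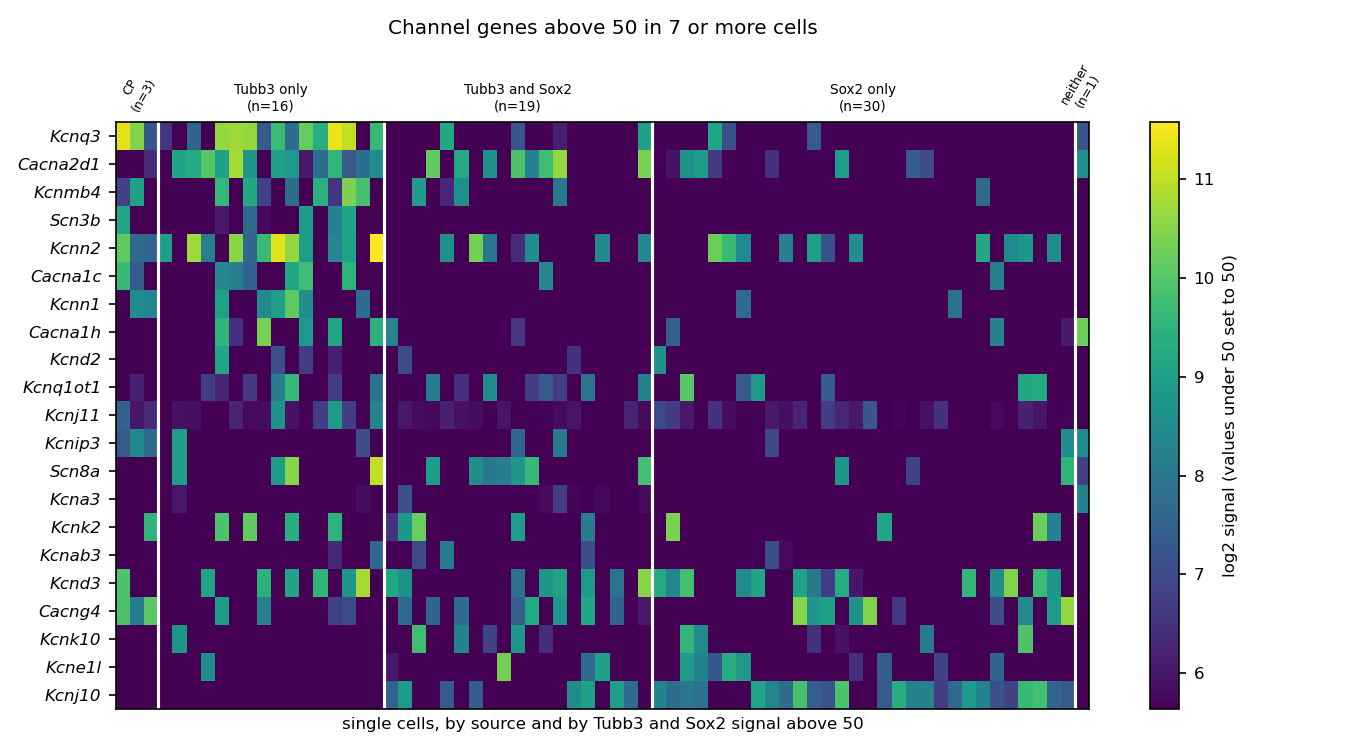
Log2 signal (colour; values under 50 set to 50) of the 21 channel genes above 50 in 7 or more cells (rows, ordered by the share of Sox2-positive minus Sox2-negative VZ/SVZ cells above 50) in 69 cells (columns), grouped as 3 CP cells and, within VZ/SVZ, 16 cells with Tubb3 only, 19 with Tubb3 and Sox2, 30 with Sox2 only and 1 with neither. Kcnq3 and Cacna2d1 at the top fill most Tubb3-only columns, and Kcnj10 at the bottom is dark in the CP and Tubb3-only columns.

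CP cells carried more channel genes above 50 than most VZ/SVZ cells. The 3 CP cells had 12, 12 and 13 members above 50, and the 66 VZ/SVZ cells had 2 to 14 with a median of 6. In all, CP cells had 4719, 3904 and 3713 genes above 50, and VZ/SVZ cells 3726 to 5715 with a median of 4712. Per 1000 genes above 50, the median was 3.07 members in CP cells and 1.21 in VZ/SVZ cells. Of the 66 VZ/SVZ cells, 7 reached the 12 members of the lowest CP cell. Over the 66 VZ/SVZ cells, members and genes above 50 had a Spearman correlation of 0.07, which is a description over cells that share amplification and chip.

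Within VZ/SVZ the count was highest in cells with the neuronal marker alone. The median was 9 members in the 16 cells with Tubb3 only (2 to 14), 6 in the 19 cells with Tubb3 and Sox2 (2 to 13) and 5 in the 30 cells with Sox2 only (2 to 9). The Tubb3-only cells had fewer genes above 50 in all, with a median of 4269.5 against 4906.5 in Sox2-only cells. By title letter, the median was 7 in A (n = 7), 5 in B (n = 14), 6 in C (n = 7), 11 in D (n = 7), 12 in E (the 3 CP cells) and 5 in X (n = 31). All 7 letter D cells had Tubb3 without Sox2, so within that letter the marker classes cannot be compared.

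**Figure D2:**
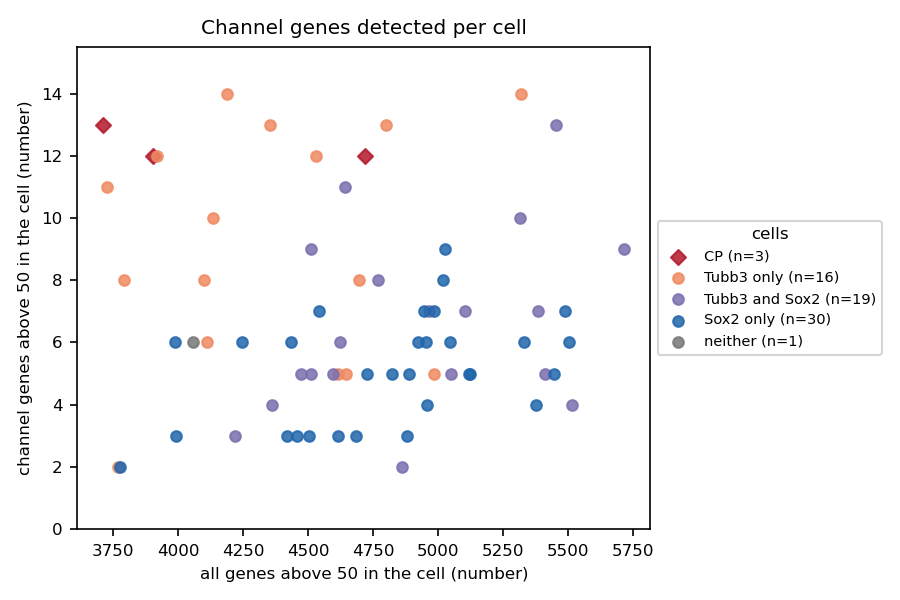
Number of channel genes above 50 in each cell (vertical axis) against the number of all genes above 50 in the same cell (horizontal axis), with red diamonds for the 3 CP cells and circles for VZ/SVZ cells coloured by Tubb3 and Sox2. The CP cells sit at 12, 12 and 13 members, and the cells with Sox2 only stay at 9 or fewer.

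Set against all VZ/SVZ cells, 9 of 119 members had a mean at least 1 log2 unit higher in CP, which is 7.56% of members beside 5.07% of all genes. They were Kcnq3, Cacng4, Kcng1, Kcnip3, Cacna1c, Kcnn1, Kcna1, Kcnn2 and Cacng2. Lower by at least 1 log2 unit were 2 members, Kcnj10 and Cacna2d1, which is 1.68% beside 12.9% of all genes. With each cell scaled to a common trimmed mean, the split was 14 higher and 1 lower beside 9.15% and 10.3% of all genes, and with quantile normalization it was 14 and 1 beside 9.76% and 9.48%. Under both scalings Cacna2d1 was no longer counted as lower, and Kcnj11, Kcnmb4, Scn3b, Cacna1g and Kcnab2 were counted as higher. When all probe sets of a gene were averaged, Kcng1, Kcnip3, Kcnn1, Kcna1, Cacng2 and Cacna2d1 were no longer counted and Cacna1e was counted as higher, and with a floor of 100 Cacna1c, Kcnn1, Kcnn2, Cacng2, Kcnj10 and Cacna2d1 were not. Over all 119 members the median difference was 0, as over all genes, since most values lie at the floor.

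Kcnq3, a pore subunit of the slow potassium current that limits repetitive firing, had the largest difference. Its signal was 2590, 1392 and 155 in CP cells, against 0.28 to 2642 with a median of 1.38 in VZ/SVZ cells. Every CP cell was above 50, 21 of 66 VZ/SVZ cells (31.8%, 20.9 to 44.4) were too, and the ranges overlapped. The mean log2 signal was 9.69 ± 2.13 in CP and 6.65 ± 1.73 in VZ/SVZ cells (SD over 3 and 66 cells), a difference of 3.04. No cell had a Kcnq3 signal between 3.91 and 70.8.

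Cacng4, an auxiliary subunit of AMPA-type glutamate receptors in spite of its calcium channel symbol, read 961, 268 and 1066 in CP cells. In VZ/SVZ cells it ranged from 1.37 to 1600 with a median of 19.4, and 23 of 66 were above 50. The log2 difference was 2.77, and a further probe set of Cacng4 was also above 50 in all 3 CP cells, against 18 of 66 VZ/SVZ cells. Its relative Cacng2 rested on 1 CP cell, with 758, 0.99 and 13.3 in CP cells and 4 of 66 VZ/SVZ cells above 50. Its difference of 1.17 became -0.14 without that cell.

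Kcnip3, a calcium-binding partner of A-type potassium channels that is also known as a transcriptional repressor, was above 50 in all 3 CP cells. It read 161, 343 and 213 in CP cells, against 0.98 to 503 with a median of 2.32 in VZ/SVZ cells, of which 7 of 66 (10.6%, 4.37 to 20.6) were above 50. The log2 difference was 1.94, and the second Kcnip3 probe set was above 50 in 0 of 3 CP and 4 of 66 VZ/SVZ cells.

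The other members counted as higher were above 50 in only some CP cells, or changed with 1 of them. Kcng1, an electrically silent subunit that modifies other voltage-gated potassium channels, read 1.90, 453 and 429 in CP cells, against 0.51 to 428 with a median of 2.62 in VZ/SVZ cells. Its log2 difference of 1.94 was 2.99 without CP cell 1. Cacna1c, the pore of an L-type calcium channel, read 796, 165 and 4.71 in CP cells, against 0.27 to 851 with a median of 1.82 in VZ/SVZ cells. Its difference of 1.54 was 0.50 without CP cell 1 and 2.49 without CP cell 3, so a single cell decides whether it was counted. Another Cacna1c probe set read 2.08, 0.62 and 452 in CP cells, so the CP cells above 50 differed by probe set. With all its probe sets averaged, the Cacna1c difference was 1.23. Kcna1, a low-threshold potassium channel of axons, read 3.21, 11.7 and 1343 in CP cells, against 1.02 to 1147 with a median of 8.60 in VZ/SVZ cells. Its difference of 1.35 was -0.23 without CP cell 3, and 2.14 without CP cell 1 or without CP cell 2.

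Both detected small-conductance calcium-activated potassium channels, which shape the pause after a spike, were higher in CP on the probe sets used. Kcnn2 read 1114, 206 and 191 in CP cells, against 0.64 to 3048 with a median of 14.3 in VZ/SVZ cells, of which 30 of 66 (45.5%, 33.1 to 58.2) were above 50. Its difference of 1.29 was 0.46 without CP cell 1 and 2.08 with quantile normalization. Kcnn1 read 11.1, 372 and 331 in CP cells, against 0.61 to 1091 with a median of 9.59 in VZ/SVZ cells, of which 8 of 66 were above 50. Its difference of 1.52 was 2.46 without CP cell 1 and 1.01 without CP cell 2. Another Kcnn1 probe set read 3.30, 0.38 and 6.17 in CP cells and was above 50 in 4 of 66 VZ/SVZ cells. With both averaged, the Kcnn1 difference was 0.72. Kcnmb4, the neuronal beta subunit of the large-conductance calcium-activated channel, lay just under the limit at 0.97, with 111, 526 and 7.14 in CP cells and 0.89 to 1352 with a median of 9.58 in VZ/SVZ cells. Kcnma1, the pore that it modifies, was above 50 in 1 VZ/SVZ cell on the probe set used, and another of its probe sets read 97.3 in CP cell 1.

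Kcnj10, an inward rectifier best known for potassium buffering by glia, was the clearest member on the low side. It read 12.2, 11.5 and 4.71 in CP cells, against 0.47 to 954 with a median of 61.8 in VZ/SVZ cells. None of 3 CP cells and 33 of 66 VZ/SVZ cells (50%, 37.4 to 62.6) were above 50, so CP was at least 2.41-fold lower by mean log2 signal. No cell had a Kcnj10 signal between 17.4 and 106. Cacna2d1, an auxiliary subunit that carries calcium channels to the membrane, read 0.56, 39.2 and 86.3 in CP cells, against 0.21 to 1754 with a median of 26.8 in VZ/SVZ cells. Its log2 difference was -1.14, and it was -0.72 with trimmed mean scaling and -0.18 with quantile normalization. Without the 7 letter D cells it was -0.99, and within letters A to D Kcnj10 was not counted.

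**Figure D3:**
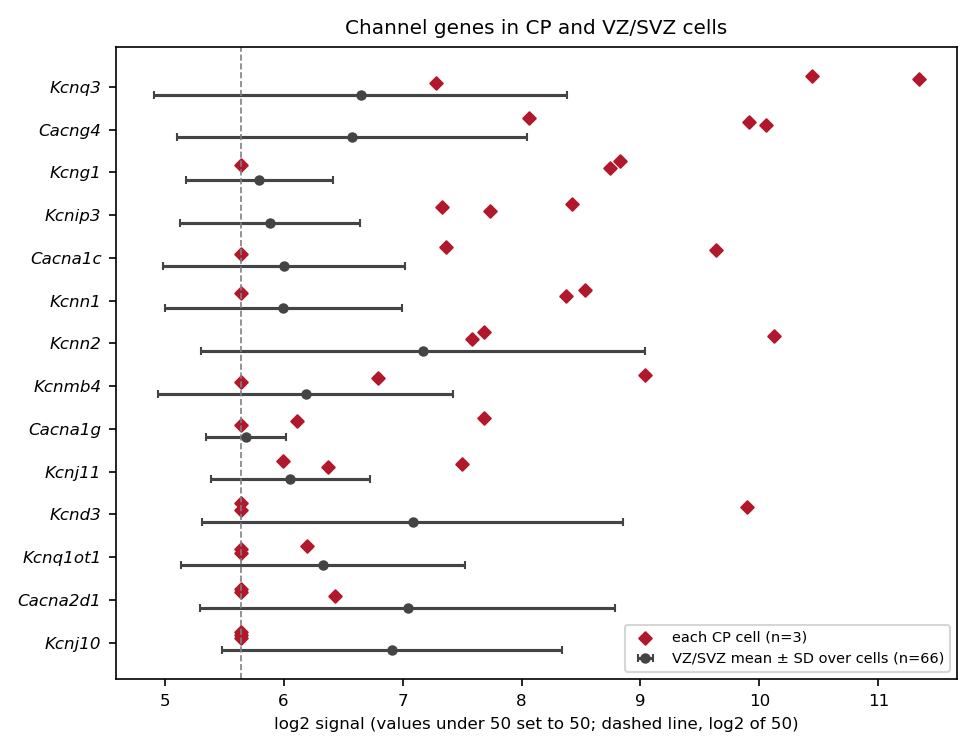
Log2 signal (horizontal axis; values under 50 set to 50; dashed line at log2 of 50) of 14 named channel genes, with a red diamond for each of the 3 CP cells and, under them, a black point and bar for the mean ± SD over 66 VZ/SVZ cells. Kcnq3, Cacng4 and Kcnip3 have all 3 CP cells right of the line, and Kcnj10 has all 3 on it.

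On the probe sets used, Kcnj11, the pore of the ATP-sensitive potassium channel, was the member detected in the most cells. It was above 50 in all 3 CP cells (181, 63.7 and 83.1) and in 45 of 66 VZ/SVZ cells (68.2%, 55.6 to 79.1), where it ranged from 7.87 to 470 with a median of 56.7. Its values cluster around the threshold, with 53 of 69 cells between 25 and 100, so the share above 50 depends on where the threshold lies. Another Kcnj11 probe set was above 50 in 1 of 69 cells only, and read 264, 0.36 and 9.53 in CP cells. On the probe set used, the log2 difference of Kcnj11 was 0.57 as deposited, 1.23 with trimmed mean scaling and 1.39 with quantile normalization. Abcc9, a sulfonylurea receptor gene, was above 50 in no cell on the probe set used. Abcc8, another sulfonylurea receptor and a partner of Kcnj11, had another pattern than Kcnj11. It read 869, 970 and 46.3 in CP cells, and was above 50 in 10 of the 16 Tubb3-only cells and in 0 of the 49 cells with Sox2, where a count of 0 allows up to 6.12%.

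Against the 16 VZ/SVZ cells with Tubb3 and without Sox2, several of these differences were nearer to 0. Of 119 members, 4 had a mean at least 1 log2 unit higher in CP (Cacng4, Kcng1, Kcnip3 and Kcnab2) beside 4.14% of all genes, and 3 were lower (Cacna2d1, Cacna1h and Scn8a) beside 10.2%. Kcnq3 differed by 0.98, Kcnn2 by -0.16 and Kcnmb4 by -0.01 in this comparison, while Cacng4 differed by 3.18, Kcnip3 by 1.89 and Kcng1 by 1.85. Kcnab2, a cytoplasmic partner of potassium channels, owed its 1.01 to 1 CP cell at 405, since the other CP cells read 1.34 and 1.97. Cacna2d1 differed by -2.41: it was above 50 in 1 of 3 CP cells and in 14 of 16 Tubb3-only cells.

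Within VZ/SVZ, 1 member was higher with Sox2 above 50 by at least 1 log2 unit, Kcnj10, beside 5.31% of all genes. Lower with Sox2 were 6 members, Kcnq3, Cacna2d1, Kcnn2, Cacna1h, Kcnmb4 and Kcnn1, which is 5.04% beside 3.28% of all genes. With a marker threshold of 100, 6 were lower, with Cacna1c in place of Kcnn1. With a marker threshold of 25, 8 were lower, with Cacna1c and Kcna1 added. The share of all genes was not computed for these marker thresholds. With Tubb3 above 50, 2 members were higher (Cacna2d1 and Kcnq3) beside 1.76% of all genes, and 1 was lower (Kcnj10) beside 2.60%. With all probe sets of a gene averaged, the Sox2 difference was -0.53 for Cacna2d1, -0.63 for Cacna1h, -0.61 for Kcnn1 and -1.45 for Kcnq3. The Tubb3 difference was then 0.43 for Cacna2d1 and 0.76 for Kcnq3, so neither was counted. Kcnj10, Kcnn2 and Kcnmb4 have a single probe set and did not change. These splits are made by a measured gene and describe cells of 1 sample.

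Kcnj10 was detected only in VZ/SVZ cells that also had Sox2. Its signal was above 50 in 33 of 49 cells with Sox2 and in 0 of 17 without, where a count of 0 allows up to 17.6%. The difference was 67.3 percentage points (44.2 to 78.8) and 1.71 log2 units. By class, its signal was 0.47 to 10.3 with a median of 4.47 in Tubb3-only cells, 1.04 to 517 with a median of 13.4 in cells with both, and 1.97 to 954 with a median of 214 in Sox2-only cells. It was above 50 in 25 of 30 Sox2-only cells and in 0 of 16 Tubb3-only cells, and the ranges of the 3 classes overlapped. Within letter X it was above 50 in 22 of 26 cells with Sox2 and 0 of 5 without, and within letters A to D in 11 of 23 and 0 of 12. By letter it was above 50 in 6 of 7 A, 5 of 14 B, 0 of 7 C, 0 of 7 D and 22 of 31 X cells.

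Kcnq3 showed the opposite split. Signals above 50 were found in 7 of 49 cells with Sox2 and 14 of 17 without, a difference of -68.1 points (-81.6 to -41.6) and -2.65 log2 units. In Tubb3-only cells it ranged from 0.57 to 2642 with a median of 726, in cells with both from 0.45 to 605 with a median of 1.07, and in Sox2-only cells from 0.28 to 562 with a median of 0.97. The classes overlapped, since 3 of 30 Sox2-only cells were above 50 and 3 of 16 Tubb3-only cells were not. Within letter X the counts were 2 of 26 with Sox2 and 4 of 5 without, and within letters A to D 5 of 23 and 10 of 12. All 7 letter D cells had Kcnq3 above 50. Without them the Sox2 difference was -1.995, and the Tubb3 difference of 1.39 became 0.83.

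Cacna2d1 was above 50 in 16 of 49 cells with Sox2 and 15 of 17 without (-55.6 points, -69.8 to -29.0), with a log2 difference of -1.74. The split depended on the probe set. The Cacna2d1 probe set with the next most cells above 50 gave 7 of 49 and 4 of 17 cells. With all its probe sets averaged, the difference was -0.53. The values that follow are from the probe set used. Its median signal was 444 in Tubb3-only cells (1.001 to 1754), 2.14 in cells with both (0.34 to 1600) and 1.56 in Sox2-only cells (0.21 to 499). By title letter it was above 50 in 3 of 7 A, 6 of 14 B, 7 of 7 C, 6 of 7 D and 9 of 31 X cells. It thus was present in nearly all C and D cells but in 1 of 3 CP cells, where the signals were all under 100.

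The calcium-activated channels were likewise found more often without Sox2. Kcnn2 was above 50 in 18 of 49 cells with Sox2 and 12 of 17 without (-33.9 points, -54.0 to -6.31), and Kcnmb4 in 5 of 49 and 8 of 17 (-36.9 points, -59.6 to -13). Kcnn1 was above 50 in 2 of 49 and 6 of 17 (-31.2 points, -54.8 to -10.8). Of its 8 VZ/SVZ cells above 50, 5 were letter D cells, and without letter D its log2 difference of -1.03 was -0.12. Cacna1h, the pore of a low-voltage-activated calcium channel, was above 50 in 6 of 49 and 7 of 17 cells, with a log2 difference of -1.27. Cacna1c was above 50 in 2 of 49 and 6 of 17 cells, with a difference of -0.99. Letter D cells were 5 of its 8 VZ/SVZ cells above 50 as well.

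**Figure D4:**
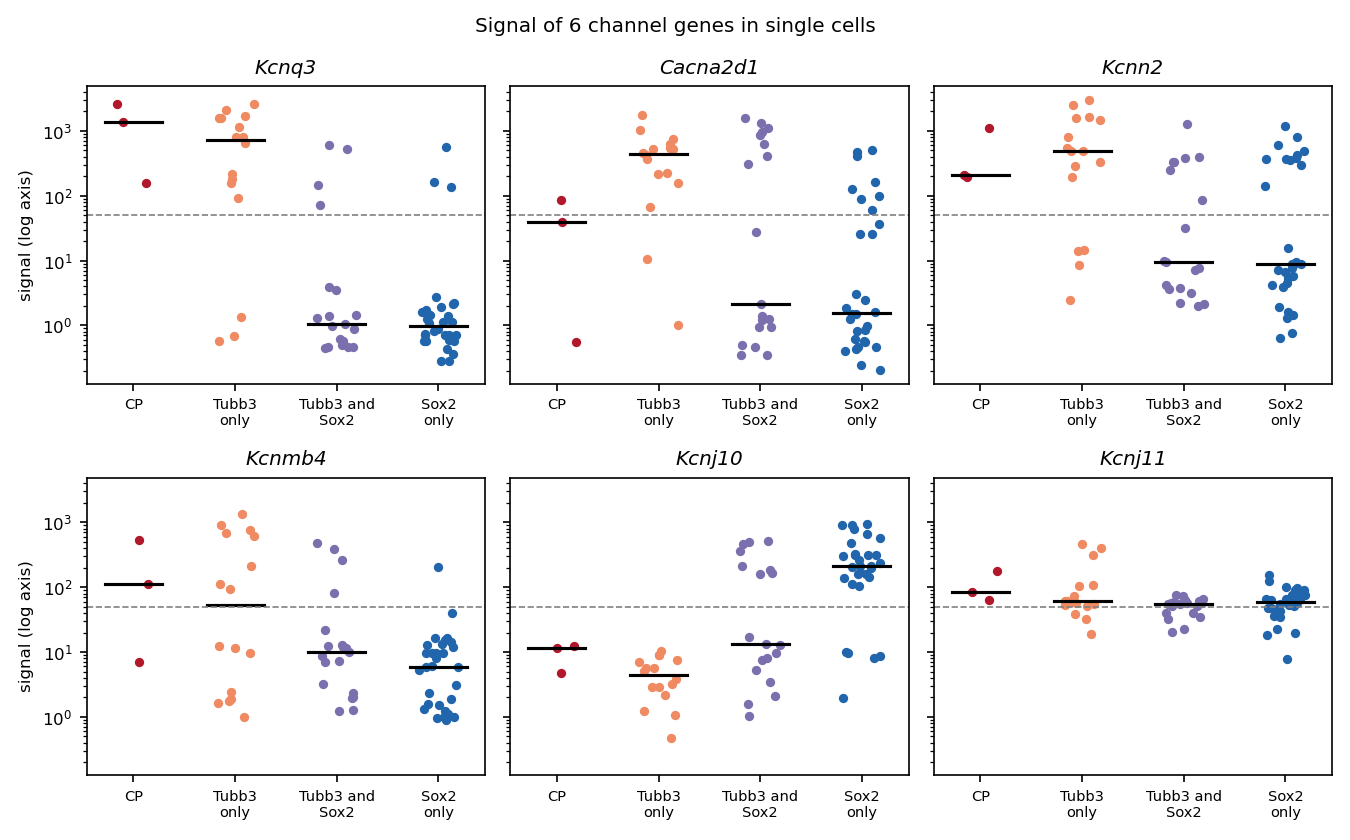
Signal (logarithmic vertical axis) of 6 channel genes in each CP cell and in VZ/SVZ cells with Tubb3 only, Tubb3 and Sox2, or Sox2 only; black bars are medians and the dashed line is 50. Kcnq3, Cacna2d1, Kcnn2 and Kcnmb4 have their highest VZ/SVZ medians in Tubb3-only cells, and Kcnj10 in Sox2-only cells. Most Kcnj11 values lie near the line, but single Tubb3-only cells reach up to 470.

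Promoters of 3 members whose marker splits ran in opposite directions are shown to give their sequence context: Kcnj10, higher with Sox2, and Cacna2d1 and Kcnmb4, lower with Sox2. The RefSeq promoter table (GRCm38.p6) held windows for 91 member genes. Each line is the 250 bases before the annotated start, 5′ to 3′ on the gene's strand, and capitals mark matches on either strand to CAGATG (a neurogenic bHLH E-box), ACAAAG (a SOX-type core), GGGCGG (a GC box) or TATAAA.
Kcnj10, chr1:172340960-172341209, + strand: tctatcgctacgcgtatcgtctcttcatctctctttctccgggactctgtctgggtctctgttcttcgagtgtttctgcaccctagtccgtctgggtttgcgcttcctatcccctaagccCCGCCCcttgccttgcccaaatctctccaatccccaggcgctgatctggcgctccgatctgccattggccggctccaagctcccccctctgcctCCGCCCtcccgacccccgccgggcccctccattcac
Cacna2d1, chr5:15934441-15934690, + strand: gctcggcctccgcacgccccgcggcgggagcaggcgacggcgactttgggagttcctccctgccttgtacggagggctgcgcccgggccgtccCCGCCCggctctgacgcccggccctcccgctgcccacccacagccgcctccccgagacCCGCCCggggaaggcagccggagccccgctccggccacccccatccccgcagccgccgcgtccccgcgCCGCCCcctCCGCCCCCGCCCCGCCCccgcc
Kcnmb4, chr10:116473524-116473773, - strand: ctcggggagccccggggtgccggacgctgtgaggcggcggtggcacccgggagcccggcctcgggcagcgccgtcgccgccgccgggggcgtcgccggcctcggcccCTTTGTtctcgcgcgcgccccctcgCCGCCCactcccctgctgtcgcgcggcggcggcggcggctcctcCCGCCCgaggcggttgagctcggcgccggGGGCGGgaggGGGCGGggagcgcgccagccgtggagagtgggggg

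GC boxes were the only one of the 4 motifs in the Kcnj10 window, with 2 matches, and in the Cacna2d1 window, with 6 matches, 1 of which overlaps its neighbour. The Kcnmb4 window held 4 GC boxes and 1 ACAAAG match. GC content was 62% for Kcnj10, 82.4% for Cacna2d1 and 83.6% for Kcnmb4. Of all 32851 windows of this length, 32.7% held GGGCGG, 16.5% ACAAAG, 14.4% CAGATG and 12.4% TATAAA. Of the 126 windows of member genes the shares were 42.9%, 13.5%, 15.1% and 3.97%.

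On the probe sets used, 2 of 8 sodium channel pore genes and 1 of 3 Scn b genes were above 50 in at least 1 cell, beside 61.6% of all genes. With any probe set 4 of 8 and 2 of 3 were, beside 64.5% of all genes. A Scn3a probe set that was not used was above 50 in 12 VZ/SVZ cells, 11 of them with Tubb3. The values that follow are from the probe sets used unless another is named. Scn8a, a pore subunit that later clusters at the axon initial segment, was above 50 in 0 of 3 CP cells (6.45, 3.67 and 1.01) and in 15 of 66 VZ/SVZ cells (22.7%, 13.3 to 34.7), where it ranged from 0.16 to 2058 with a median of 2.11. It was above 50 in 10 of 49 cells with Sox2 and 5 of 17 without, and in 7 of the 19 cells with Tubb3 and Sox2. A second Scn8a probe set was above 50 in 9 cells and read 293 in CP cell 1, and with all its probe sets averaged the CP difference of -0.73 was -0.04. Scn3b, an auxiliary subunit, was above 50 in 1 of 3 CP cells (556, 4.50 and 6.43) and in 6 of 66 VZ/SVZ cells. All 6 had Tubb3 and lacked Sox2: 0 of 49 against 6 of 17, a difference of -35.3 points (-58.7 to -15.9). Of these 6 cells, 4 were letter D cells. Another Scn3b probe set was above 50 in 0 cells, with a highest signal of 8.11. With both averaged, the Scn3b log2 difference by Sox2 of -0.70 was -0.35. Scn1a was above 50 in 0 of 3 CP and 5 of 66 VZ/SVZ cells, and those 5 all had Tubb3.

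The calcium channel beta subunits, which hold the pore subunits at the membrane, depended on the probe set. The probe sets used for Cacnb1 and Cacnb4 were each above 50 in 2 VZ/SVZ cells and no CP cell, all of them Tubb3-only. Another Cacnb4 probe set read 535, 327 and 357 in the 3 CP cells and was above 50 in 0 of 66 VZ/SVZ cells, where a count of 0 allows up to 4.55%. With that probe set CP was higher by at least 2.99 log2 units, while the one used gave -0.03. The rule had passed it over because its mean over all cells was lower. The same held for Cacna1e, the pore of an R-type calcium channel. A Cacna1e probe set that was not used read 517, 542 and 207 in CP cells and was above 50 in 0 of 66 VZ/SVZ cells, while the one used was above 50 in no cell.

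Some members had a larger share in cells with Sox2, with intervals of the difference that include 0. These intervals cover counting error over cells of 1 sample. Members were named by the size of this same difference, so the intervals are no test of it. Kcne1l, a small accessory subunit, was above 50 in 13 of 49 cells with Sox2 and 1 of 17 without (20.6 points, -2.84 to 35.2), and Kcnk10, a mechanically gated leak channel, in 11 of 49 and 1 of 17 (16.6 points, -6.54 to 30.8). Cacng5 was above 50 in 6 of 49 and 0 of 17 (12.2 points, -7.30 to 24.2). Cacng4 was above 50 in 19 of 49 and 4 of 17, and Kcnd3 in 23 of 49 and 6 of 17. These counts are from the probe sets used. Another Cacng4 probe set gave 14 of 49 and 4 of 17. Other probe sets of Kcnk10 and Cacng5 were above 50 in 0 cells, and those of Kcnd3 in 2, 0 and 0 cells. Kcnd3, a pore of the fast A-type potassium current, was above 50 in 1 of 3 CP cells (949, 5.25 and 8.78) and in 29 of 66 VZ/SVZ cells, with a median of 11.2 and a range of 0.62 to 1757, and its CP difference was -0.03.

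**Figure D5:**
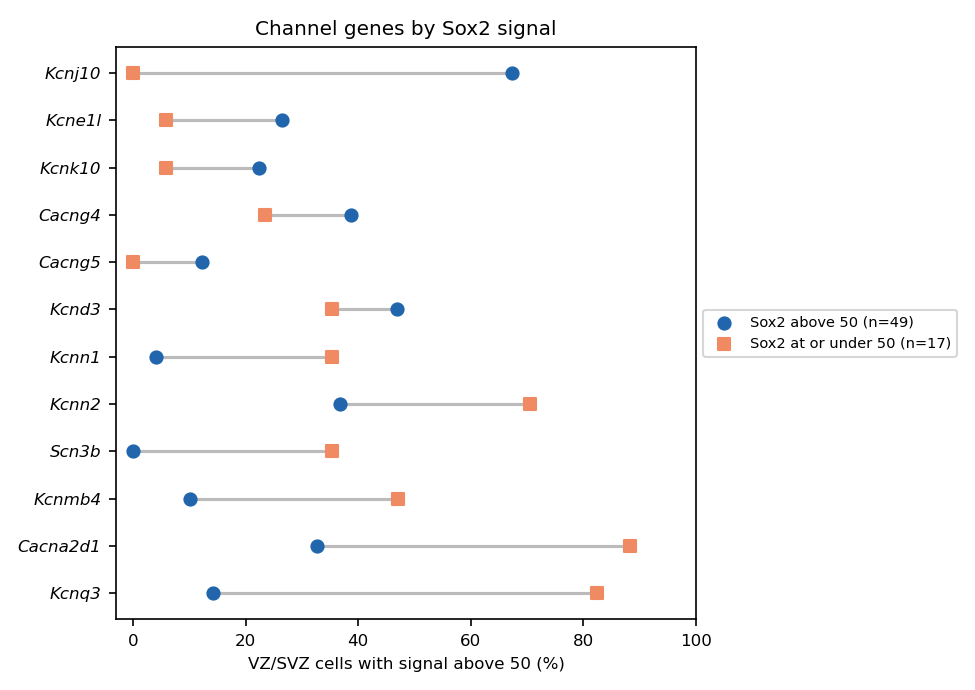
Share of VZ/SVZ cells with signal above 50 (horizontal axis, %) for 12 channel genes, with blue circles for the 49 cells with Sox2 above 50 and orange squares for the 17 cells with Sox2 at or under 50. Kcnj10 lies at 67.3% with Sox2 and at 0% without it, and Kcnq3 at 14.3% with Sox2 and at 82.4% without it.

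With Eomes above 50, no member was higher by at least 1 log2 unit, beside 1.10% of all genes, and 1 was lower, Kcnk2, beside 1.14%. Kcnk2, a mechanically and thermally gated leak channel, was above 50 in 1 of 28 cells with Eomes and 12 of 38 without (-28.0 points, -44.2 to -9.14), a log2 difference of -1.01. It was above 50 in 4 of 7 A, 0 of 14 B, 1 of 7 C, 3 of 7 D and 5 of 31 X cells. Within letter X the counts were 0 of 8 with Eomes and 5 of 23 without, and within letters A to D 1 of 20 and 7 of 15. Without letter D the log2 difference was -0.86, and then Kcnj10 (-1.19) was counted as lower and Cacna2d1 (1.12) as higher with Eomes. Its CP cells read 0.97, 0.57 and 741.

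Other members were also seen less often with Eomes. Kcnj10 was above 50 in 8 of 28 cells with Eomes and 25 of 38 without (-37.2 points, -55.8 to -12.8), Cacna1h in 2 of 28 and 11 of 38 (-21.8 points, -38.4 to -2.23), and Kcnd2, another pore of the A-type current, in 0 of 28 and 7 of 38 (-18.4 points, -33.4 to -3.25). Scn3b was above 50 in 0 of 28 and 6 of 38. In the other direction, Scn8a (9 of 28 and 6 of 38), Kcna3 (6 of 28 and 3 of 38), a potassium channel also known from lymphocytes, and Kcnip3 (5 of 28 and 2 of 38) had intervals that include 0. Here too, members were named by the size of the difference, and the intervals cover counting error only.

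Kcnq1ot1, a long noncoding RNA antisense to Kcnq1 and known for imprinting, is in the set by its symbol only. Signal was above 50 in 1 of 3 CP cells (10.8, 73.3 and 7.54) and 21 of 66 VZ/SVZ cells, which ranged from 0.24 to 1044 with a median of 10.9. Cells above 50 were 15 of 35 cells with Tubb3 and 6 of 31 without (23.5 points, 0.97 to 42.7). A second Kcnq1ot1 probe set did not show this split. It was above 50 in 7 of 35 cells with Tubb3 and 9 of 31 without, and it read 401, 58.6 and 0.81 in CP cells. Kcnq1 itself was above 50 in no cell.

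Among the 14 members above 50 in at least 10 VZ/SVZ cells, 91 pairs were compared by Spearman correlation over the 66 VZ/SVZ cells. The 6 highest were Kcnn2 with Kcnq3 (0.56), Cacna2d1 with Kcnq3 (0.44), Kcnmb4 with Kcnq3 (0.43), Cacna2d1 with Scn8a (0.39), Cacna2d1 with Kcnq1ot1 (0.38) and Cacna1h with Kcnq3 (0.37). Kcnn2 and Kcnq3 were above 50 together in 17 cells, Kcnn2 alone in 13, Kcnq3 alone in 4 and neither in 32. These values describe cells that share amplification, depth and the Tubb3 and Sox2 classes above.

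Of 23 listed partners and related channels, 21 were measured, and 16 were above 50 in at least 1 cell, beside 61.6% of all genes. Of the 21, 2 had a mean at least 1 log2 unit higher in CP (Abcc8 by 2.02 and Cntnap2 by 1.89) and none lower, beside 5.07% and 12.9% of all genes. Against Tubb3-only cells Abcc8 differed by -0.41. Fgf13, an intracellular regulator of sodium channels, was above 50 in 42 of 49 cells with Sox2 and 7 of 17 without, a log2 difference of 2.59, and in all 30 Sox2-only cells. Hcn3, a pacemaker-type channel, was above 50 in 8 of 49 and 10 of 17 cells, a difference of -1.28. Ank3, the scaffold that anchors sodium channels, was above 50 in 1 of 49 and 5 of 17 cells. Of 10 ion gradient genes measured, only Slc12a2, a chloride importer, was counted as higher with Sox2, beside 5.31% of all genes. Its difference was 1.64 (33 of 49 cells and 3 of 17). Only Atp2b2, a calcium pump, was counted as higher in CP, by 1.47, beside 5.07% of all genes. Rest, the repressor known for silencing neuronal channel genes outside neurons, was above 50 in 18 of 49 cells with Sox2 and 1 of 17 without, and in 0 of 3 CP and 19 of 66 VZ/SVZ cells. Its cofactors Rcor1 and Hdac1 were the 2 of 6 REST complex genes lower in CP, beside 12.9% of all genes: Rcor1 was above 50 in 0 of 3 CP and 51 of 66 VZ/SVZ cells, and Hdac1 in 1 of 3 and 64 of 66.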

How the data were processed

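Single cells of embryonic day 14 CD1 dorsal forebrain were measured on Affymetrix arrays. The authors deposited 1 linear intensity per probe set, computed by MAS5 according to the submitters' processing notes. Neither the version nor the scaling target is given in the sources used here, and detection calls were not used. The trimmed mean (2% off either end) ranged from 50.1 to 142 over cells, and 18.0% of values were above 50. Of 45101 probe sets, 34958 had 1 gene in the platform annotation, giving 18194 genes. All 207 TrpnX control values were under 50.

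Groups came from the source label. Values under 50 were set to 50, log2 was taken, and group means were subtracted. A difference of 1 log2 unit was counted; this is a rule of size, since each group is 1 sample and no test applies. The CP to VZ/SVZ difference is a bound where no cell of a group is above 50. Intervals (95%) are exact Clopper-Pearson for shares and Newcombe for differences of shares; a count of 0 is read as up to 3 counts. The computation was tested on simulated data, with shifts put into genes above 50 in nearly all VZ/SVZ cells and with equally large groups. Shifts in genes mostly at the floor and a group as small as CP were not simulated. The reliability of the CP counts was therefore not tested. Python 3.11.15, pandas 2.3.3, numpy 2.4.6, SciPy 1.17.1 and matplotlib 3.10.9 were used.

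Genes were named by rule: members above 50 in at least 50% of cells; the largest CP differences among members above 50 in at least 2 of 3 CP cells (higher), or in at least 25% of VZ/SVZ and at most 1 CP cell (lower); up to 6 per marker and direction by difference in share; all Scn and Cacnb genes above 50; and the 6 most correlated pairs. Cacng2, Kcna1 and Kcnab2, the other members counted in CP, were named after their values were seen, as were Kcnma1, Kcnq1, Cacna1e and the list genes. The members and lists were chosen with earlier results of these data known. Alternatives covered scaling, floor, thresholds, probe set choice, title letters and leaving out each CP cell.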

Additional observations from a re-analysis of the deposited data

Results flagged for a closer look

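Several channel genes had signal on probe sets that the comparisons did not use. Each of these probe sets was above 50 in more cells than the one used and in more than the 3 cells that a count of 0 allows (4.35% of 69 cells). A Cacnb1 probe set was above 50 in 16 cells, 2 of them CP, against 2 cells on the probe set used. A Cacna1a probe set (the pore of a presynaptic calcium channel) was above 50 in 13 cells, against 0, with 162, 160 and 0.73 in CP cells and 8 of its 11 VZ/SVZ cells in the Sox2-only class. A Scn3a probe set (a sodium channel pore known for embryonic expression) was above 50 in 12 cells, against 0, all VZ/SVZ: 8 Tubb3-only, 3 with Tubb3 and Sox2 and 1 Sox2-only. Scn2a had 2 such probe sets, each above 50 in 4 cells, against 0. Scn2b had 4 cells, against 0, and Kcnd1 had 5 cells, against 2. No outlier check applied, since the groups hold 3 and 66 cells.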

How the results depend on the processing

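The CP counts moved with several settings. Members higher and lower in CP were 9 and 2 as reported, 14 and 1 with trimmed mean scaling and with quantile normalization, 5 and 1 (beside 2.91% and 7.24% of all genes) when all probe sets of a gene were averaged, 5 and 0 (2.92% and 9.04%) with a floor of 100, and 30 and 14 (17.8% and 26.1%) with no floor. With a floor at the TrpnX 95th percentile (6.26), 15 (10.6%) were higher. The lower count was 1 within letter X (14.4%), within letters A to D (11.9%) and without letter D (13.6%, added after seeing the data), and 4 (4.14%) were higher against Tubb3-only VZ/SVZ cells. For markers, the TrpnX floor gave 6 higher with Tubb3, 2 higher with Sox2 and 3 lower with Eomes; a floor of 100 gave 0 lower with Tubb3, 3 lower with Sox2 and 0 lower with Eomes; letter X alone gave 1 higher with Eomes, letters A to D 3 lower with Eomes, and leaving out letter D 1 higher with Tubb3 and 1 higher with Eomes. Leaving out each CP cell gave 9 to 13 higher and 2 to 3 lower, and medians of 12 to 12.5 members per CP cell. The share of all genes was not computed for these marker settings or for leaving out each CP cell. Changes in those counts therefore cannot be told apart from changes over all genes. Among the channel genes counted, the sign of the CP difference changed for Cacng2 (1.17 as reported, -0.14 to 1.82 without each CP cell) and Kcna1 (1.35 as reported, -0.23 to 2.14), and for Kcnn2 against Tubb3-only cells (-0.16), where Kcnj10 was at 0.00. The listed partner genes were not rerun. The causes of these changes were not tested. The number of members detected was 57 at a threshold of 25, 44 at 100, 60 with quantile normalization, 47 with trimmed mean scaling and 61 with the probe set above 50 in the most cells. No paired analysis was possible because the labels name no replicates and no CP cell shares a title number with a VZ/SVZ cell. With 3 CP cells, a share of 0 or 3 carries little precision, and signals near 50 cannot be ordered.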
